A study of Mus musculus with 2 samples.

Results

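Respiratory complex I subunits encoded in the nucleus were followed in the liver of mouse embryos at embryonic day 11.5. They were chosen by name, as the protein-coding genes whose symbols are Nduf followed by a, ab, b, c, s or v and a number, and 37 of the 21474 protein-coding gene rows met the rule. Assembly factors of the Ndufaf type were left out, and Ndufb1 had no row that met the rule and was not analysed here. The RNA came from B6NCrl mice, in 2 biological replicates that form 1 group, each a pool of male and female livers; the label of replicate 1 names 109 embryos. Each library was made by a SmartSeq protocol, which copies polyadenylated RNA and amplifies it by PCR, from 1 cell-equivalent of total RNA above 200 bases with spike-ins added. There is no treatment and no other genotype, so the comparisons are between the libraries, between the genes and with other gene lists, and no p-value was computed. In pooled tissue, fewer cells of a type and less RNA per cell cannot be told apart.

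Complex I takes electrons from NADH, passes them through a flavin and a chain of iron-sulfur clusters to ubiquinone, and pumps protons across the inner mitochondrial membrane. It has an arm in the mitochondrial matrix, made of an N module that oxidises NADH and a Q module that reduces ubiquinone, and an arm in the membrane with a proximal and a distal part. The catalytic core is built from 7 nuclear and 7 mitochondrially encoded subunits, and the other nuclear subunits are accessory. At this stage the liver holds hepatoblasts and is a site of red blood cell formation.

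The libraries held 33289699 and 32607453 expected counts, so 3 reads, the limit that a count of 0 allows, correspond to a CPM, a count scaled to library size, of 0.0901 and 0.092; this covers read counting only, since PCR copies are not independent molecules. TPM is a length-corrected relative abundance, and the spike-ins had 5.83% of it in the first library and 7.68% in the second. Of 10 hepatoblast markers 9 were detected in both libraries, with a summed level of 1.21% and 1.05% of TPM; the exception was Hnf4a, at 34.8 TPM and 0. All 10 erythroid markers were detected in both, at 9.21% and 8.29% of TPM. Of 10 heart muscle markers 3 were detected in both libraries, with Myl7, Myl2 and Tnni3 at 0 in replicate 1, Nppa and Myh7 at 0 in both, and a summed level of 0.0107% and 0.0319%. Macrophage markers summed to 0.0429% and 0.0171%, with 3 of the 4 above 10 TPM more than 2-fold higher in replicate 1, and mesenchymal markers to 0.0213% and 0.0448%, with 3 of 5 more than 2-fold higher in replicate 2. Endothelial markers summed to 0.00963% and 0.0106%, and megakaryocyte markers to 0.0959% and 0.119%, with none past 2-fold. By the same rule, 3 of 10 hepatoblast and 2 of 10 erythroid markers, Gata1 and Epb42, were higher in replicate 1. Of the heart muscle markers above 10 TPM, 5 of 7 were higher in replicate 2. No marker of these lists was past 2-fold the other way. Of all genes above that filter, 25.8% were higher in replicate 1 and 25.2% in replicate 2. The part of these cell types in the differences between the libraries given here was not tested.

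All 37 complex I genes were detected in both libraries, that is at a TPM of at least 1, and all were also above 10 TPM in both. Of all protein-coding rows 27.3% were detected in both. Together the 37 genes made up 1.43% of TPM in replicate 1 and 1.40% in replicate 2, a mean of 1.42% ± 0.016 (SD, n = 2). Their median level was 335 TPM in replicate 1 and 336 TPM in replicate 2. By mean TPM they ranked between percentile 91.3 and percentile 99.3 of the protein-coding rows, with a median at 98.0. There were 22 genes between 200 and 500 TPM and 8 at 500 TPM or above, and the highest mean was 13.0 times the lowest. The smallest read count of a member in a library was 1240 and the largest 16981.

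**Figure D1:**
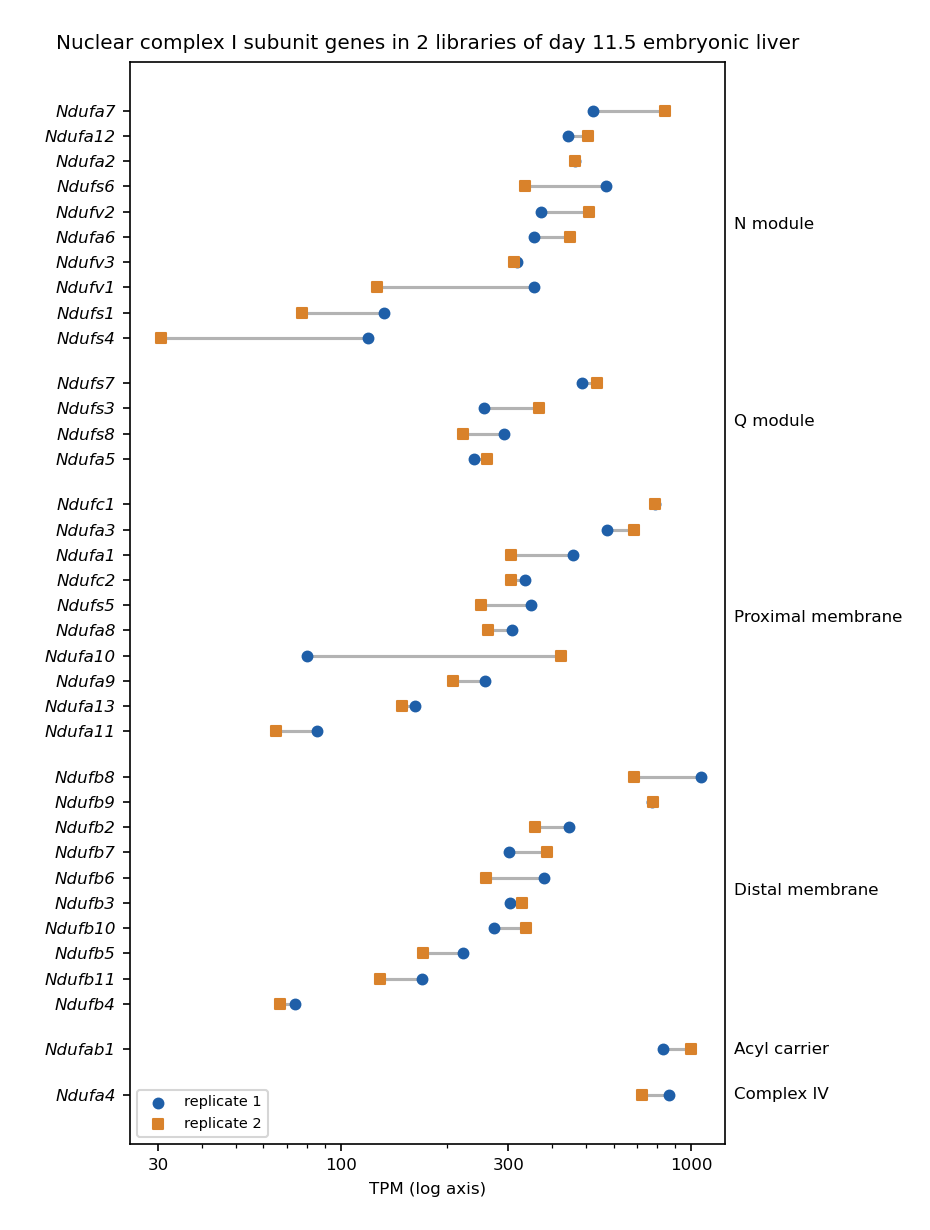
TPM (log axis) of 36 of the 37 genes in replicate 1 (circles) and replicate 2 (squares), joined by a line for each gene and grouped by place in the complex. Most pairs lie close together, while Ndufa10, Ndufv1 and Ndufs4 are drawn far apart.

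Among the N module core, Ndufv1, which binds NADH and the flavin, stood at 355 TPM in replicate 1 and 126 TPM in replicate 2. Ndufv2, its iron-sulfur partner, stood at 372 and 512 TPM. Ndufs1, the largest subunit, which carries iron-sulfur clusters, stood at 133 and 77.5 TPM. Ndufv2 was thus higher in replicate 2 and the other 2 core genes in replicate 1, with the same ranking in both. Among the accessory subunits, Ndufa7 was the highest by mean, at 523 and 839 TPM, Ndufa12 stood at 444 and 508 TPM, and Ndufa2 at 466 TPM in both. Ndufs6, a zinc-binding subunit, stood at 570 and 336 TPM, Ndufa6, of the LYR family that binds acyl carrier protein, at 356 and 449 TPM, and Ndufv3 at 317 and 311 TPM. Ndufs4, an accessory subunit whose loss causes Leigh-like disease in mice, was the lowest of the module at 119 and 30.7 TPM.

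The Q module was more even. Ndufs7, which holds the last iron-sulfur cluster before ubiquinone, stood at 486 and 536 TPM, above the other 4 genes in both libraries. Ndufs3, a core subunit of the same module, stood at 255 and 366 TPM. Ndufs8, a ferredoxin-like subunit, stood at 292 and 223 TPM, and the accessory Ndufa5 at 239 and 261 TPM. The order of these last 3 genes differed between the libraries.

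In the proximal membrane arm the small subunits Ndufc1 and Ndufa3 were highest, at 789 TPM in both libraries and at 574 and 685 TPM. Ndufa1 stood at 460 and 304 TPM, Ndufc2 at 335 and 306 TPM, Ndufs5, on the intermembrane-space side, at 348 and 251 TPM, and Ndufa8, on the same side, at 307 and 263 TPM. Ndufa10, a subunit with a nucleoside kinase fold, stood at 79.95 TPM in replicate 1 and 426 TPM in replicate 2. Ndufa9, related to short-chain dehydrogenases, stood at 257 and 208 TPM, Ndufa13, also known as GRIM-19, at 162 and 149 TPM, and Ndufa11 at 85.1 and 65.3 TPM. Ndufa10 was the one gene of this part with the libraries further apart than 2-fold.

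The distal membrane arm was led by Ndufb8, often used as a marker protein of the assembled complex, at 1064 and 684 TPM, and by the LYR protein Ndufb9 at 770 and 778 TPM. Ndufb2 stood at 447 and 357 TPM, Ndufb6 at 380 and 259 TPM, Ndufb3 at 304 and 328 TPM, and Ndufb5 at 223 and 172 TPM. The intermembrane-space subunits Ndufb7 and Ndufb10 stood at 301 and 386 TPM and at 273 and 338 TPM. The lowest were the X-linked Ndufb11, at 170 and 129 TPM, and Ndufb4, at 74.0 and 67.1 TPM. Ndufab1, the mitochondrial acyl carrier protein, which sits in both arms, had the highest mean of all members, with 831 and 1000 TPM. Ndufa4, which met the naming rule and is now placed in complex IV, stood at 863 and 720 TPM.

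Core and accessory genes differed in level by less than the spread between the libraries. The 7 core genes had a median level of 8.19 on the log2(TPM + 1) scale and the 29 accessory genes 8.31, a difference of -0.12. Taken in each library by itself, the difference was -0.20 in replicate 1 and 0.04 in replicate 2, with an SD of 0.17 (n = 2). The 15 matrix arm genes had a median level of 8.30 and the 20 membrane arm genes 8.27, a difference of 0.02. Within a library the difference was larger, 0.22 in replicate 1 and 0.15 in replicate 2, since the gene at the median is not the same one. The module medians were 8.71 in the N module, 8.19 in the Q module, 8.18 in the proximal and 8.30 in the distal membrane arm. The N module had the highest median in both libraries, 8.51 in replicate 1 and 8.60 in replicate 2. The next was the proximal membrane arm in replicate 1, at 8.33, and the Q module in replicate 2, at 8.41. Across the 37 genes, TPM and effective length had a Spearman correlation of -0.70, against -0.61 over protein-coding genes detected in both libraries. With CPM, which is not divided by length, the correlation with effective length over the 37 genes was 0.21. These correlations are descriptions across genes, and length enters TPM itself.

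The libraries were compared by the log2 ratio of TPM + 1, replicate 2 over replicate 1, centred on the median of the 6801 genes with a mean of at least 10 TPM. All 37 complex I genes passed this filter. Past 2-fold, 1 gene was higher in replicate 2, where 25.2% of all filtered genes were, and 2 were higher in replicate 1, where 25.8% were. Centred on the spike-ins instead, 7 members were past 2-fold and the median ratio was -0.54 in place of -0.15. Low genes differ more between these libraries, so genes of like level are the closer background. Among the 1727 protein-coding genes in the range of the members' mean TPM, 11.2% were higher in replicate 2 and 15.1% in replicate 1. Within 1.25-fold were 17 of the 37 members and 30.3% of these genes, and within 1.5-fold 29 members and 51%. The ratio was above 0 in 14 members and in 47% of these genes. The genes in that range had a lower median level than the members, 7.06 against 8.30 on the log2 scale.

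The median absolute ratio was 0.33 over the complex I genes and 0.57 over the protein-coding genes in their range. In bands of mean TPM, 1 of 7 members between 50 and 200 TPM was past 2-fold in either direction, against 37.8% of 1810 other protein-coding genes. Between 200 and 500 TPM 2 of 22 members were, against 16.4% of 385 others, and between 500 and 1000 TPM 0 of 8 were, against 2.22% of 135 others. In the highest band the median absolute ratio was 0.23 for members and 0.24 for the others, so there the members were no closer together than other genes. TPM in replicate 1 and replicate 2 had a Spearman correlation of 0.77 over the 37 genes and 0.54 over the protein-coding genes in their range.

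**Figure D2:**
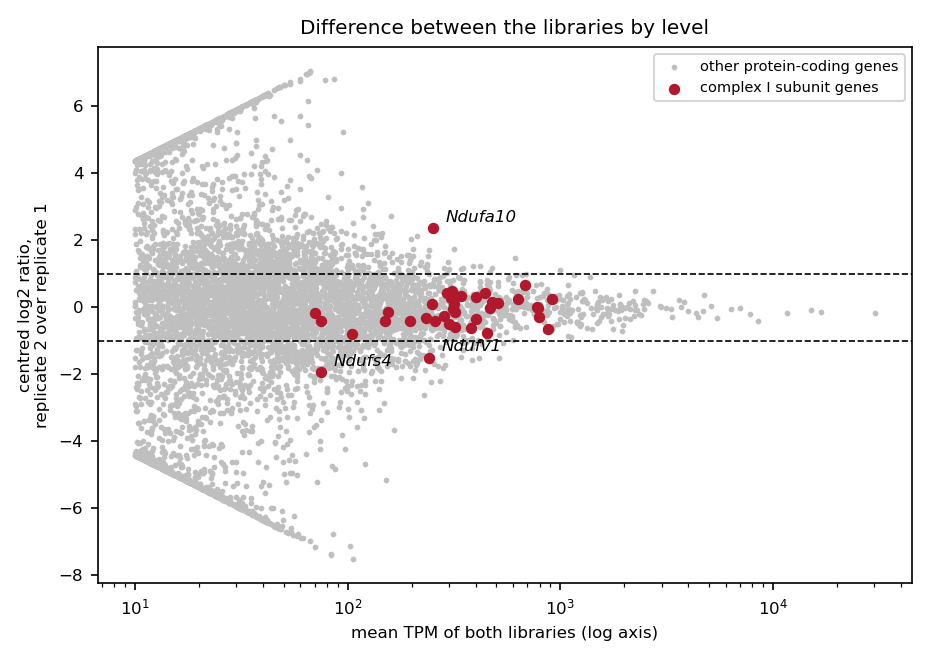
Centred log2 ratio of replicate 2 over replicate 1 against mean TPM (log axis) for protein-coding genes with a mean of at least 10 TPM (grey) and the 37 complex I genes (red), with dashed lines at 2-fold. Ndufa10 lies above the upper line, Ndufv1 and Ndufs4 lie below the lower line, and the other 34 complex I genes lie between the lines.

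Ndufa10 (chr1:92439010-92473860, minus strand) had 3380 reads in replicate 1 and 11499 in replicate 2, with a centred log2 ratio of 2.37. Its effective length was 1430 bases in replicate 1 and 920 in replicate 2, and this difference enters the TPM ratio. In CPM, which is not divided by length, replicate 2 was 3.47-fold higher, against 5.32-fold in TPM. Ndufv1 (chr19:4007384-4012806, minus strand) had 13923 and 5388 reads, a ratio of -1.51. Ndufs4 (chr13:114287795-114388258, minus strand) had 5065 and 1294 reads, a ratio of -1.95. These 3 genes were chosen after their values were seen, by the 2-fold rule. The deposited credibility intervals of TPM, which cover read assignment and counting within a library, were apart between the libraries for 32 of 37 members and for 91.3% of all filtered genes. The 5 members whose intervals overlapped were Ndufc1, Ndufb9, Ndufa2, Ndufv3 and Ndufb4.

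Ndufb4, which was low in TPM, shares part of its sequence with a second locus, so its level includes a division of reads by estimation. Whether that division made the level low was not tested. Ndufb4 (chr16:37647170-37654453, minus strand) encodes a distal membrane subunit, and Ndufb4c (chr15:73809507-73809896, minus strand) is annotated as a processed pseudogene of 390 bases. All 390 bases of Ndufb4c, from a start codon to a stop codon, were found without a difference at bases 95 to 484 of the Ndufb4-201 transcript. Therefore every one of the 291 windows of 100 bases in Ndufb4c also occurs in Ndufb4, and they make up 27.2% of the windows in Ndufb4. The first 120 bases of that shared stretch, 5′ to 3′ from the M21 transcript sequences, are shown for both loci because no read within them can be assigned to one locus by sequence, with the start codon in capitals:
Ndufb4-201: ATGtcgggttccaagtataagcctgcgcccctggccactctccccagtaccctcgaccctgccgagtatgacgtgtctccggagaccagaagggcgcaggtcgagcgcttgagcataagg
Ndufb4c: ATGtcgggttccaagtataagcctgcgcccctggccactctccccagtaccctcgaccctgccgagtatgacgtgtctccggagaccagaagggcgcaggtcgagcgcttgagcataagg

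Ndufb4c was listed at 556 TPM in replicate 1 and 418 TPM in replicate 2, against 74.0 and 67.1 TPM for Ndufb4. It received 79.4% and 73.8% of the reads of the pair. The TPM values of the pair summed to 630 and 485. Each TPM is scaled to the length of its own row, 390 bases for Ndufb4c and 666 and 743 for Ndufb4. The sum is therefore not the TPM that Ndufb4 would have with all reads of the pair. Which locus the reads came from was not tested. Elsewhere, 30 of the 37 members shared no window of 100 bases with another gene, and after Ndufb4 the largest shares were 12.7% for Ndufs5, 11.4% for Ndufa12 and 8.4% for Ndufs3. Of 13 pseudogene rows with at least 90% identity to 11 members over at least 80% of their length, Gm4459 was the other row with many reads. It is a near copy of Ndufab1 with 62.0 and 71.3 TPM.

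Ndufa11 (chr17:56717767-56722141, plus strand) was low in TPM but not in reads, with 6445 and 4916 reads. Its single transcript was 2661 bases long in the tables and 545 bases in the M21 annotation, a ratio of 4.88. With the M21 length and all of these reads kept, it would stand at 489 and 375 TPM in place of 85.1 and 65.3. Whether the reads lie within the 545 bases was not checked. No other member's leading transcript differed in length by more than 1.5-fold between the tables and M21.

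Most of the genes had the same leading transcript in both libraries, at a share near that of protein-coding genes in their range. Of the 37 genes 13 had 1 transcript in the tables and 24 had more. The transcript with the highest TPM was the same in both libraries for 20 of those 24, against 62.4% of all filtered genes with more than 1 transcript and 83.2% of protein-coding ones in the members' range. The 4 exceptions were Ndufa10, Ndufv1, Ndufb5 and Ndufb4. Among the 24 genes with more than 1 transcript, those that M21 annotates as protein-coding accounted for 84.0% of the summed TPM in replicate 1 and 79.4% in replicate 2. Over genes of the same range with more than 1 transcript it was 84.8% and 83.9%. A coding share above 90% in both libraries was seen in 13 of the 24, against 55.2% of those genes.

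For Ndufa10 the coding transcript made up 26.8% and 12.7% of the gene. Its leading transcript was Ndufa10-207, annotated for nonsense-mediated decay, in replicate 1, with 58.1%, and Ndufa10-204, a retained intron, in replicate 2, with 38.5%. The coding transcript Ndufa10-201 itself was estimated at 21.4 TPM and 54.2 TPM, so it was higher in replicate 2 as well. Ndufv1 was led by Ndufv1-207 in replicate 1, with 39.6%, and by Ndufv1-201 in replicate 2, with 63.4%, and both are coding. The TPM of Ndufv1-207 was 141 in replicate 1 and 16.0 in replicate 2. Ndufb5 was led by Ndufb5-204 in replicate 1, at 67.6%, and by Ndufb5-203 in replicate 2, at 45.7%, both coding. Ndufb4 was led by Ndufb4-202, a retained intron, in replicate 1, with 60.2%. In replicate 2 it was led by the coding Ndufb4-201. The coding share of Ndufb4 was 39.8% in replicate 1 and 55.0% in replicate 2.

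Some genes had a low coding share in both libraries. Ndufa5 was almost wholly Ndufa5-204, annotated as a processed transcript without a coding sequence, with 96.4% and 98.4%. Ndufab1 had a coding share of 50.6% and 49.7% and Ndufc1 of 54.6% and 52.7%, the remainder being mostly retained introns. Ndufv3, a gene with a long and a short product, was nearly all short transcript, Ndufv3-202, with 93.3% and 99.9%. The long transcript Ndufv3-201 had 21.2 TPM in replicate 1 and 0 in replicate 2. Reads of 1 transcript and of another that overlaps it are divided by estimation, so these shares are less certain than the gene values.

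**Figure D3:**
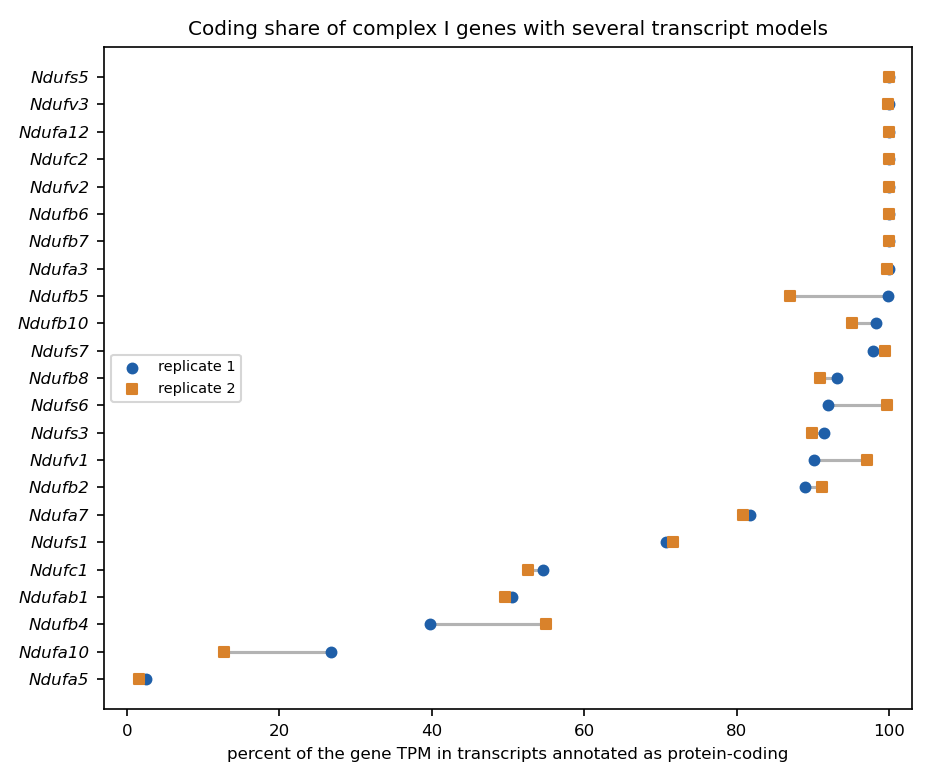
Percent of gene TPM in transcripts annotated as protein-coding in M21 for 23 of the 24 genes with more than 1 transcript in the tables, in replicate 1 (circles) and replicate 2 (squares). Ndufa5 and Ndufa10 lie furthest to the left in both libraries.

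The mitochondrially encoded core subunits form the proton-pumping membrane core, and all 7 were detected in both libraries. Their median level was 1.53 times that of the nuclear members in replicate 1 and 2.09 times in replicate 2. On the log2 scale of the mean level they were 0.95 higher, with 0.61 in replicate 1 and 1.06 in replicate 2. mt-Nd1 was highest, at 3370 and 3268 TPM, and mt-Nd4 followed at 776 and 1553 TPM. mt-Nd2 stood at 566 and 701 TPM, mt-Nd6 at 513 and 714 TPM, mt-Nd5 at 302 and 535 TPM, mt-Nd3 at 355 and 417 TPM, and mt-Nd4l at 48.7 and 148 TPM. In 6 of the 7 the TPM was higher in replicate 2, whereas the nuclear genes had no such common direction. Nuclear copies of mitochondrial DNA share 97.6% of the 100-base windows of mt-Nd3, 98.5% of mt-Nd4l and 60.8% of mt-Nd4, so their values are uncertain.

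Assembly factors, which build the complex and are not part of it, were lower than the subunits. Of 18 with a row, 11 were detected in both libraries and 7 in 1. The median level of all 18 was 4.83, against 8.30 for the subunits. Protein-coding genes detected in both libraries had a median of 5.15. The 18 factors include the 7 detected in 1 library, so 4.83 and 5.15 are not over like sets. Ecsit, at 50.1 and 48.9 TPM, Ndufaf1, at 57.0 and 50.5 TPM, and Ndufaf4, at 70.7 and 74.5 TPM, were alike between the libraries. Ndufaf2 stood at 144 and 15.9 TPM, Tmem126b at 88.8 TPM and 0, Ndufaf5 at 49.6 TPM and 0, and Timmdc1 at 0.14 and 33.7 TPM. Of the 16 above 10 TPM on average, 9 were past 2-fold between the libraries, a share near the 51.4% of all protein-coding genes above that filter. The median absolute ratio was 1.30 for these factors, and 1.04 for all protein-coding genes above the same filter.

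Among 12 regulators of mitochondrial gene expression 5 were detected in both libraries. Tfam, which packages mitochondrial DNA and helps transcribe it, stood at 132 and 157 TPM. The transcription factors Nrf1, Gabpa and Yy1 stood at 45.9 and 59.5 TPM, 72.4 and 46.8 TPM, and 7.38 and 8.03 TPM. The coactivators Ppargc1a and Ppargc1b and the nuclear receptor Esrra had no reads in either library. The other 4 regulators were detected in 1 library only. Of these, Pprc1 stood at 36.2 TPM in replicate 1 and 0 in replicate 2. Tfb1m stood at 50.14 and 0.03 TPM, Polrmt at 12.48 TPM and 0, and Tfb2m at 0 and 13.48 TPM. Ndufa4l2, a relative of Ndufa4 outside the naming rule, had no reads in replicate 1 and 48.2 TPM in replicate 2.

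The nuclear subunits of complexes II to V, the other oxidative phosphorylation complexes, had a higher median level, 9.24, and 42 of 45 were detected in both libraries. The 3 others were Cox6a2, Cox7a1 and Cox8b, which are the muscle forms of complex IV subunits. Their median absolute ratio between the libraries was 0.25, and 2 of 42 were past 2-fold. The 77 mitochondrial ribosomal proteins had a median level of 6.91 and the 80 cytosolic ribosomal proteins 10.2, with median absolute ratios of 1.02 and 0.22. Complex I genes thus lay between the mitochondrial ribosomal and the complex II to V genes in level and, in these medians, in spread between the libraries. Low genes differ more between these libraries, and the spread of these lists was not compared at like level.

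**Figure D4:**
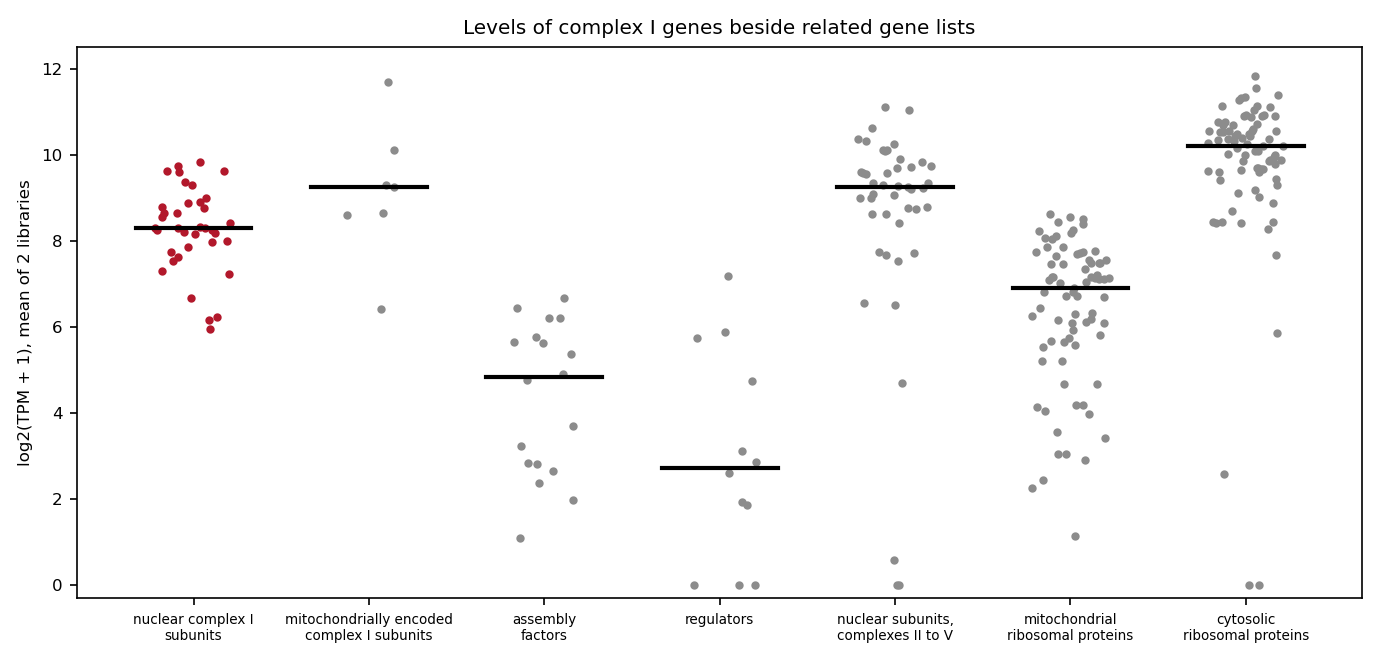
Level of each gene as log2(TPM + 1), averaged over both libraries, for the complex I genes (red) and 6 related lists (grey), with a bar at the median of each list. The complex I genes all lie above 5, while each of the other lists except the mitochondrially encoded subunits has genes below 5, and regulators, complexes II to V and cytosolic ribosomal proteins have genes at 0.

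Promoters were taken from RefSeq windows of 250 bases before to 50 bases after the start site (GRCm38.p6), which held 33 of the 37 genes. The words searched on both strands were GCATGCGC for NRF1, CCGGAAG for ETS factors such as GABPA, AAGATGGC for YY1 and TATAAA for the TATA box. AAGATGGC was in 7 of 33 complex I windows (21.2%), in 3.64% of 16522 protein-coding genes, in 6.78% of the 4693 detected in both libraries and in 8.57% of 35 complex II to V genes. GCATGCGC was in 3 of 33 (9.09%), against 4.11% and 7.44% in those backgrounds and 20% of the complex II to V genes. CCGGAAG was in 4 of 33 (12.1%), against 13.4%, 25.3% and 37.1%. TATAAA was in 4 of 33 (12.1%), against 14.3%, 8.50% and 8.57%. The median GC content of the complex I windows was 59%, against 57% over all protein-coding genes and 61% over those detected in both libraries.

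All 7 AAGATGGC matches lay on the strand of the gene and between 22 and 38 bases after the start site. The share of genes with a match on that strand after the start site was 1.56% of the protein-coding genes, 3.32% of those detected in both libraries and 2.86% of the complex II to V genes. This strand and position were set after the 7 matches were seen, so the members' share does not change with them and is not to be read against these values. The stretches are shown 5′ to 3′ on the strand of the gene, with the match in capitals and up to 11 bases on each side, because they show this shared position:
Ndufa3, chr7:3617384-3617413, strand +: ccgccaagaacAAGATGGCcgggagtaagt
Ndufa9, chr6:126849097-126849126, strand -: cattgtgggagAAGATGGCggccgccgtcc
Ndufb8, chr19:44555393-44555415, strand -: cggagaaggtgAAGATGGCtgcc
Ndufc1, chr3:51408915-51408944, strand -: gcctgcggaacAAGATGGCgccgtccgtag
Ndufs4, chr13:114388045-114388070, strand -: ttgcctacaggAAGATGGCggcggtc
Ndufs6, chr13:73328433-73328460, strand -: gggtcaccggcAAGATGGCggcggtgct
Ndufs7, chr10:80249462-80249491, strand +: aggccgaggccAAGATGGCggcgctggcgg

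The 7 genes came from the N module (Ndufs4, Ndufs6), the Q module (Ndufs7), the proximal arm (Ndufa3, Ndufa9, Ndufc1) and the distal arm (Ndufb8). Their mean TPM ran from 75.1 for Ndufs4 to 874 for Ndufb8, so they spanned most of the range of the members. Their centred log2 ratios ran from -1.95 for Ndufs4 to 0.23 for Ndufa3. A match is a run of letters in the reference, and binding was not measured. The word AAGATGGC holds the letters ATG, and whether these are the start codon of the 7 genes was not checked.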

How the data were processed

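RNA of 2 embryonic liver libraries was measured by sequencing. The tables use assembly mm10 and GENCODE release M4, per the submitters' text files. The software used for alignment and quantification is not given in the sources used here. Deposited by the authors were expected counts (estimates of reads, some fractional) and TPM values, in which such an estimate is corrected for the effective length of the row and brought to a common total per library. Per the file headers the tables also hold posterior means, credibility bounds and, for transcripts, the percent of the gene in each transcript. Whole tables were processed with Python 3.11.15 and pandas 2.3.3. Symbols, gene types and coordinates came from release M21 by identifier without version; 42462 of 43346 Ensembl rows matched. Rows for spike-ins and rows with numeric names count in TPM sums only. Detection needed a TPM of at least 1. Ratios used a pseudocount of 1 and a mean TPM of at least 10, and understate the change of low genes. A 2-fold rule of size stood in for a test, since 1 group of 2 libraries allows none. In simulated data for this ratio, with 200 of 6801 genes changed 4-fold and read counting as the only noise, the 2-fold rule found all 200 and 3 unchanged genes. Near copies were found with blastn 2.17.0 on M21 transcripts. The members are named, with the lists of related genes, except 1 that is counted in the totals and not reported here by itself; the members and lists were chosen with earlier results of these data known. Alternatives covered the threshold, pseudocount, filter, scale, centring and each library left out.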

Additional observations from a re-analysis of the deposited data

How the results depend on the processing

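With 2 libraries and no contrast, values are descriptions. Detection of 37 genes, 32 with intervals apart and the sign of the step from nuclear to mitochondrially encoded subunits held under each alternative tried. The share of 1.42% became 1.39% with posterior means, 1.75% rescaled without globins and mitochondrially encoded genes, and 1.34% without Ndufa4. The median level of 8.30 became 8.27, 8.60 and, with a pseudocount of 0.1, 8.29; each library alone gave 8.39 to 8.40, as a median of means can lie below both medians. Each library alone gave 0.15 to 0.22 for matrix minus membrane arm (0.02 with both, -0.02 with Ndufa9 in the matrix arm and Ndufa11 left out) and 0.61 to 1.06 for mitochondrially encoded minus nuclear genes. Chosen after seeing the data, adding the TPM of Ndufb4c, at its own length, to Ndufb4 gave a share of 1.46% and a level of 8.31. The M21 length of Ndufa11, chosen likewise and with all its reads kept, gave 1.45% and 8.31. Both changes together gave -0.02 for the arms.

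The median ratio of -0.15 was -0.15 with a pseudocount of 0.1 and with posterior means, -0.12 without the filter and without centring, -0.14 with CPM, and -0.54 centred on spike-ins. It turned to 0.0282 with a filter of 100 TPM, which leaves 34 members and centres on higher genes. The median absolute ratio of 0.33 was 0.33 with a pseudocount of 0.1 and with posterior means and 0.34 without the filter, with the 100 TPM filter and with CPM. Centring on spike-ins put 7 members past 2-fold in place of 3; the cause was not tested. The leading transcript by expected count was the same in 23 of 24. No paired analysis was possible because there is 1 group.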
